A study of Mus musculus with 10 samples.

Results

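The adult mouse retina was described on its own from 5 microarrays, the members of the retina group among the 10 arrays of the series. The members were chosen by their sample titles and the other 5 arrays, of postnatal cortex, enter none of the values given for the retina, only 1 of the alternative scalings. The retina RNA came from a single pool of 350 C57/B6 mice described as adult, with no genotype, treatment or age in days given. The titles of the retina arrays also read P1, which the sources do not explain, and the descriptions were followed. Each array received digoxigenin-labelled cRNA made from 1 µg of total RNA and was read by chemiluminescence. The 5 arrays were repeats of 1 pool in a study of platform variation, so every SD below measures the platform and not the spread between animals, and no groups were tested against each other.

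The retina is a layered sheet of neurons in which rods and cones turn light into an electrical signal. In rods, light leads to activation of the G protein transducin, transducin switches on a phosphodiesterase, cyclic GMP falls and cyclic GMP-gated channels close. The signal passes through ribbon synapses to bipolar cells and on to ganglion cells, with horizontal and amacrine cells modulating it and Müller glia supporting the whole sheet. Rods are by far the most numerous cells of the mouse retina, and in a bulk sample the signal of a gene cannot separate many cells from much RNA per cell.

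The table held 33012 probes, all with positive intensities. The median intensity of an array ran from 836 to 987, and the number of arrays limits the precision. Pearson correlations of log2 intensity over all probes, taken after the scaling given next, lay between 0.966 and 0.970 for the 10 pairs of arrays. The arrays share the pool and the probes, and no pair held identical deposited values. Intensities were put on the log2 scale and given 1 shared distribution, and mean log2 intensity then ran from 6.09 to 21.06 with a median of 9.61. Of the probes, 14411 carried 1 gene symbol and named 13840 genes, 247 carried several symbols and 18354 had no listed gene and stay unnamed. Probes differ in how well they bind, so the ranks below order signal and do not order transcript abundance between genes.

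No detection call was used, so a level for reading dim signal was taken from 743 probes named for olfactory receptors, the odorant receptors of the nose. Their median log2 intensity was 8.11 and their 95th percentile was 10.52, and 10.52 is used below as the dim level. It is a level for reading and not a detection test. Above it lay 14018 probes (42.5%), of which 13119 were above it on every array, while 17140 probes were above it on none and 2753 were above it on some arrays and not on others. By gene, 7809 of 13840 (56.4%) had a probe above the dim level, whereas 32.0% of the probes with no listed gene did. The brightest olfactory receptor probe, that of Olfr1061, had a log2 intensity of 15.06 and stood at rank 2752 of all probes.

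**Figure D1:**
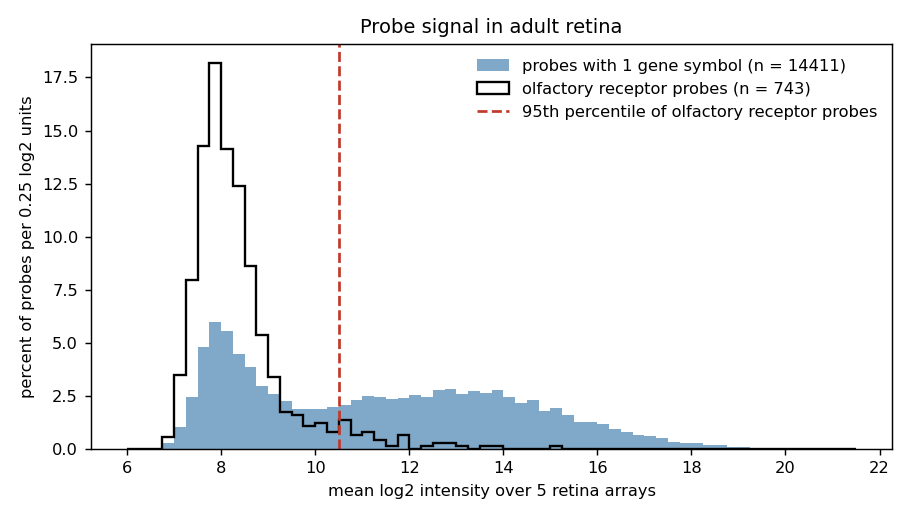
Share of probes (percent per 0.25 log2 units, y axis) against mean log2 intensity over the 5 retina arrays (x axis), for the 14411 probes with 1 gene symbol (filled) and the 743 olfactory receptor probes (outline). The dashed line is the dim level of 10.52, and the olfactory receptor probes gather around 8.11 while the named probes have a second, broad shoulder to the right of the line.

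The signal was concentrated in few probes. The brightest 10 probes of an array gave 3.49% ± 0.13 (SD, n = 5 arrays) of the summed intensity, the brightest 100 gave 18.3% ± 0.42, and the brightest 3301, the top 10%, gave 80.7% ± 0.20. All probes below the dim level gave 1.78% ± 0.11 together. Of the brightest 100 probes, 84 were among the brightest 100 on every array and 51 had no listed gene, so the named genes below are a subset of the brightest transcripts.

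Photoreceptor genes, ribosomal protein genes and housekeeping genes filled most of the top of the order of named genes. The 30 brightest named genes had mean log2 intensities from 19.38 to 21.06 and stood within the first 65 probes. They included 5 genes of the rod phototransduction list (Gngt1, Gnat1, Pdc, Guca1a and Cngb1) and 2 of the outer segment discs (Rom1 and Prph2). Also among them were 1 gene of photoreceptor cargo handling (Unc119) and 2 Müller glia genes (Glul and Clu). A further 7 were cytosolic ribosomal protein genes (Rpl26, Rps12, Rpl9, Rpl19, Rps7, Rpl13a and Rpl21). Neighbours in this order were mostly not separated: only 3 of the 30 gaps to the next gene, after Rom1, Prph2 and Rpl26, exceeded the larger SD of the pair.

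Gngt1, which encodes the rod transducin gamma subunit, stood at rank 2, with log2 intensities of 21.10, 20.79, 21.10, 20.92 and 21.04 on arrays 1 to 5. It was the brightest probe on arrays 1 and 3 and never stood below rank 4. Rom1, which encodes a tetraspanin of the outer segment disc rim, had log2 intensities of 20.92, 21.10, 20.63, 20.79 and 20.79 and stood at rank 4. It was the brightest probe on array 2 and the fifth on array 3. Gnat1, which encodes the transducin alpha subunit of rods, had values of 20.45, 20.61, 20.45, 20.27 and 20.30 and stood at rank 11. Its lowest arrays were 4 and 5, and its place ranged from 6 to 15. Shared values in these lists come from the shared distribution, in which the brightest probe of every array is given 21.10.

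Pdc, which encodes phosducin, the protein that holds the beta-gamma dimer of transducin, averaged 20.31 ± 0.19 and had its highest value, 20.63, on array 5. Guca1a, which encodes a calcium-sensing activator of retinal guanylate cyclase, was among the steadiest of the group at 20.08 ± 0.05. Cngb1, which encodes the beta subunit of the rod cyclic GMP-gated channel, had 19.61 ± 0.06. Prph2, which encodes peripherin 2, the partner of Rom1 in the disc rim, had 19.91 ± 0.08, and Unc119, which encodes a carrier of acylated cargo such as transducin, had 20.16 ± 0.13. All of these lay far above the dim level on every array.

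Müller glia were represented at the top by Glul, which encodes glutamine synthetase, with log2 intensities of 20.11, 20.10, 20.12, 20.08 and 20.15. Its SD was 0.03, and 0.0639 without scaling between arrays. Clu, which encodes the secreted chaperone clusterin, had 20.09 ± 0.10. Among the genes used in most cells, Gapdh, a glycolytic enzyme, had 20.54 ± 0.07, Eef1a1, a translation elongation factor, had 20.56 ± 0.14, Tuba1a, an alpha tubulin, had 20.52 ± 0.07, and Ckb, brain creatine kinase, had 20.39 ± 0.19. Ppia, which encodes cyclophilin A, had 20.03 ± 0.09.

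The 10 of the 30 that belong to none of the gene lists used here were Mtrr, Hmgn1, Eef1a1, Tuba1a, Ube2c, Cpe, Fbxo22, H3f3a, Pcbp2 and Rtbdn. Mtrr, annotated as methionine synthase reductase, had the brightest probe of the whole table, with log2 intensities of 21.04, 21.04, 21.04, 21.10 and 21.10, in first or second place on every array. Its other probe had 11.65 ± 0.08 and stood at rank 10903. Ube2c, annotated as a ubiquitin-conjugating enzyme of mitosis, stood at rank 9 with 20.44 ± 0.18. Of the 10 measured genes of dividing cells, 7 (70%) lay below the dim level, against 43.6% of all named genes. The brightest of the 10 was Cdc20 at 12.04 ± 0.27. Whether the bright probes of Mtrr and Ube2c measure the genes they are annotated to was not tested. Rtbdn, which encodes the riboflavin-binding protein retbindin of the retina, had 19.42 ± 0.15.

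**Figure D2:**
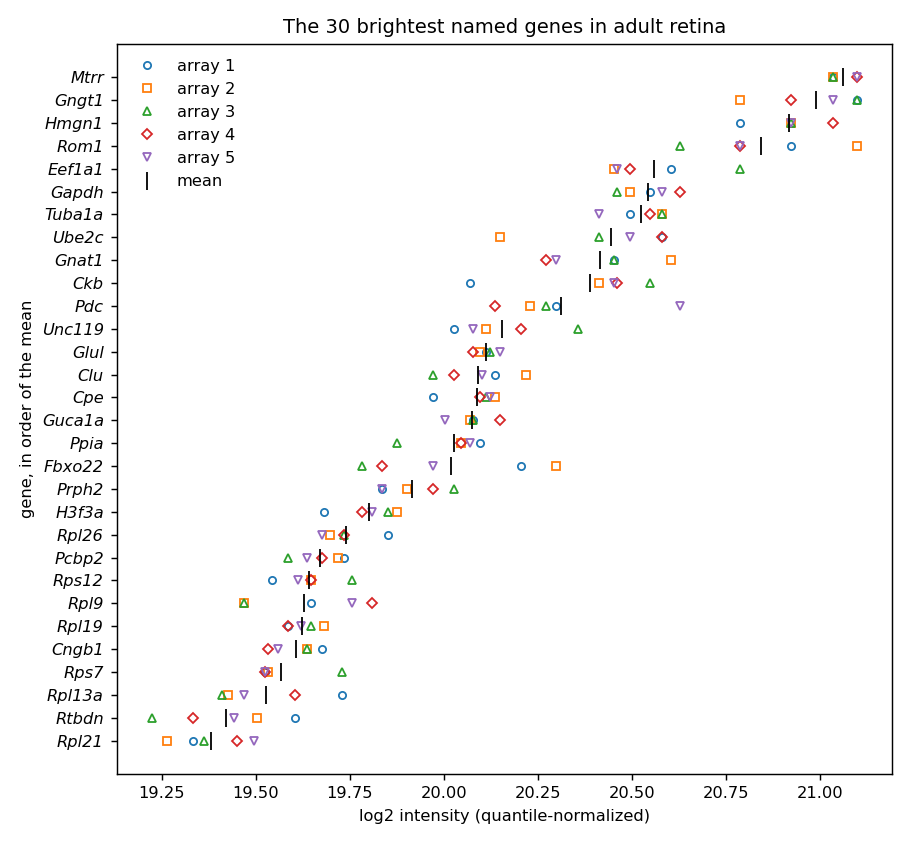
Log2 intensity (x axis, quantile-normalized over the 5 retina arrays) of the 30 brightest named genes (y axis, in order of the mean), with a marker for each array and a bar at the mean. The markers of neighbouring genes overlap along most of the order, from Mtrr at 21.06 to Rpl21 at 19.38.

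Promoter sequences were set beside this order because CRX and OTX2, the homeodomain factors of photoreceptors, are known to bind TAATCC, and NRL, the rod leucine zipper factor, is known to bind sites that hold TGCTGA, as do the related MAF factors of the lens. Both strings were searched for on either strand in the 250 bases before the first-listed start of each gene in RefSeq promoters of build GRCm38.p6, which held an entry for 11164 of the 13840 named genes (80.7%). TAATCC occurred in 6.25% of all 32851 promoters and in 5.63% of those of the named genes. It occurred in 14 of 48 promoters of genes in the 5 photoreceptor lists (29.2%), in 3 of 11 of the bipolar list and in 1 of 44 of the ribosomal list. Within the photoreceptor lists, 10 of 32 genes in the brightest 10% of probes and 4 of 16 others held it. In the 10 bright genes there were 12 matches, of which 11 began within 100 bases of the start. Positions were not taken in any other promoters, so whether this share is unusual was not tested. Over all named genes the share ran from 4.21% to 6.72% across 10 equal groups by signal, and was 6.27% in the dimmest group and 6.0% in the brightest.

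The 150 bases just before the start are printed for the 5 brightest photoreceptor genes that hold TAATCC there, in capitals, on either strand. The next 2 are the brightest photoreceptor genes with no match in 250 bases. The set shows where matches lie and is no rate: of the 8 brightest photoreceptor genes with an entry, 3 held a match in these 150 bases, and the set was chosen after the matches were seen. A match is a run of letters and not a shown binding site.
Gngt1 (chr6:3993858-3994007, plus strand, mean log2 intensity 20.99): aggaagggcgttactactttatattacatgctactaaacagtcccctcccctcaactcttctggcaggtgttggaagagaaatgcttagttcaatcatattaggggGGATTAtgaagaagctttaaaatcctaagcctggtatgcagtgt
Guca1a (chr17:47400607-47400756, minus strand, mean log2 intensity 20.08): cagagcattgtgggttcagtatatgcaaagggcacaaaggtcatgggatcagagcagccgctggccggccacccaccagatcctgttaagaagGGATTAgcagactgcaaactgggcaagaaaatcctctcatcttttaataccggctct
Cngb1 (chr8:95306586-95306735, minus strand, mean log2 intensity 19.61): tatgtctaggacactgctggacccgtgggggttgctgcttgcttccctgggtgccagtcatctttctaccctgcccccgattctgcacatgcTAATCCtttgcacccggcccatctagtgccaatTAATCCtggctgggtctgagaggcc
Rbp3 (chr14:33953853-33954002, plus strand, mean log2 intensity 19.07): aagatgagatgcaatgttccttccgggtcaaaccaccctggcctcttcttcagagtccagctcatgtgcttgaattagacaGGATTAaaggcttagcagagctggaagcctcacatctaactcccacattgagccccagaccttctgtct
Aipl1 (chr11:72037510-72037659, minus strand, mean log2 intensity 19.01): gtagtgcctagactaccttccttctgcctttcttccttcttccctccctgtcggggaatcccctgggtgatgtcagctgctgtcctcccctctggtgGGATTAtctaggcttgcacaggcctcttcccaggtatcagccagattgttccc
Rom1 (chr19:8929357-8929506, minus strand, mean log2 intensity 20.84): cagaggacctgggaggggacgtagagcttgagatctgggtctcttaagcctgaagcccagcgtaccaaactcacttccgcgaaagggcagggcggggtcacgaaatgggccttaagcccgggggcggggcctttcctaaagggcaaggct
Pdc (chr1:150319267-150319416, plus strand, mean log2 intensity 20.31): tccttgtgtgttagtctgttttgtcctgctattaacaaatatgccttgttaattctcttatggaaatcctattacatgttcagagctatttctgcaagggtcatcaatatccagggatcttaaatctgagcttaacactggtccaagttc

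Gngt1, Guca1a, Rbp3 and Aipl1 carried the match as GGATTA, on the strand opposite to that of TAATCC, and Cngb1 carried it as written at 2 places. The match began 44 bases before the start in Gngt1, 57 in Guca1a, 69 in Rbp3, 53 in Aipl1, and 58 and 25 in Cngb1. Rbp3, which encodes the retinoid-binding protein of the matrix between photoreceptors and pigment epithelium, had a mean log2 intensity of 19.07 ± 0.13. Aipl1, which encodes a chaperone for the rod phosphodiesterase, had 19.01 ± 0.07. Rom1 and Pdc, with no match, stood at ranks 4 and 15.

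The whole rod phototransduction list had a median percentile of 98.9 ± 0.15 among all probes of an array, where the named genes as a whole had a median of 63.4. Of its 21 genes, 17 had a probe with 1 symbol, and 12 of these lay in the brightest 10% of probes by their mean percentile, against 14.4% of all named genes, of which 43.6% lay below the dim level. Of the 12, 11 lay there on every array, and the exception was Guca1b, whose arrays are given further on. The others were not analysed here. Pde6b, which encodes the beta subunit of the rod phosphodiesterase, had 18.64 ± 0.23. The 3 genes below the dim level, named after their values were seen except the dimmest, were the guanylate cyclase genes Gucy2f (10.41 ± 0.09) and Gucy2e (10.27 ± 0.17) and Rgs9bp (8.97 ± 0.49), which encodes the anchor of the GTPase-activating complex that ends the transducin signal.

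Cone genes were lower in the order. The cone list, with 11 of 11 genes measured, had a median percentile of 92.0 ± 0.22, and 6 genes lay in the brightest 10%. Opn1sw, which encodes the short-wavelength cone opsin, had log2 intensities of 17.90, 17.89, 17.62, 17.84 and 17.66. Arrays 3 and 5 were the lowest of the 5. Pde6h, the inhibitory phosphodiesterase subunit of cones, had 17.15 ± 0.07, Gnat2, the cone transducin alpha subunit, had 16.87 ± 0.08, Arr3, cone arrestin, had 16.32 ± 0.05, and Pde6c, the catalytic phosphodiesterase subunit of cones, had 15.13 ± 0.04. Slc24a2, a sodium, calcium and potassium exchanger, was the dimmest at 8.92 ± 0.86, below the dim level on every array. All 4 defining cone markers were in the brightest 10%, as were the 3 of 5 defining rod markers that were measured, Gnat1, Pde6b and Nrl.

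Genes that build and regulate photoreceptors followed the rod list. The outer segment and matrix list had a median percentile of 95.2 ± 0.19 with 8 of 10 measured genes in the brightest 10%. Its dimmest gene was Abca4, the retinoid flippase of the disc rim, at 11.48 ± 0.22. The cilium, cargo and chaperone list had a median percentile of 95.8 ± 0.36 with 8 of 14 in the brightest 10%, led after Unc119 by Mpp4, a scaffold protein of the photoreceptor terminal (19.15 ± 0.13), and its dimmest gene was the centrin Cetn1 at 7.33 ± 0.21. The transcription factor list had a median percentile of 97.9 ± 0.12 over 7 measured genes. Nrl, which sets rod fate, had log2 intensities of 18.40, 18.24, 18.46, 18.51 and 18.78, with array 5 the highest. Otx2 had 17.94 ± 0.07, Neurod1 had 17.36 ± 0.13, and Thrb, the thyroid hormone receptor that acts in cones, was the dimmest at 9.94 ± 0.37.

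The visual cycle, which regenerates the chromophore of opsins, had a median percentile of 92.6 ± 0.21 with 5 of 9 measured genes in the brightest 10%. Rlbp1, which encodes the retinal-binding protein of Müller glia and pigment epithelium, had 18.10 ± 0.18, and the retinol dehydrogenase genes Rdh12 and Rdh5 had 17.69 ± 0.07 and 15.88 ± 0.07. Rpe65, the isomerase of the pigment epithelium, had 14.39 ± 0.14. Rbp4, the retinol carrier of blood, was the dimmest at 9.08 ± 1.01. Of 69 measured genes whose mutations cause inherited retinal degeneration in humans, 39 lay in the brightest 10% and 4 lay below the dim level. The median percentile of that list was 92.3 ± 0.43, and many of its members are also in the lists above.

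Genes of the ribbon synapse had a median percentile of 91.0 ± 0.13, with 5 of 10 measured genes in the brightest 10%. Egflam, which encodes pikachurin, a matrix protein of the photoreceptor synapse, had 17.10 ± 0.08, Cabp4, a calcium-binding regulator of the synaptic calcium channel, had 16.11 ± 0.17, and Ctbp2, whose gene also gives rise to the ribbon protein RIBEYE, had 16.04 ± 0.18. Bsn, the scaffold bassoon that anchors ribbons, had values of 7.73, 10.02, 7.87, 9.44 and 8.10, below the dim level on every array.

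Among the interneurons, bipolar cells had the highest list. Their genes had a median percentile of 92.7 ± 0.17, with 8 of 12 measured genes in the brightest 10% and none of the 12 below the dim level. Pcp2, a G protein regulator found in ON bipolar cells, had log2 intensities of 18.11, 17.91, 17.99, 18.39 and 18.32, with arrays 4 and 5 the highest. Scgn, a calcium-binding protein, had 16.78 ± 0.15, Cabp5 had 16.49 ± 0.07, and Grm6, which encodes the metabotropic receptor that ON bipolar cells use to sense glutamate, had 15.12 ± 0.12. Nyx, a leucine-rich repeat protein of the same synapse, was the dimmest at 11.82 ± 0.12.

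The amacrine list had a median percentile of 85.2 ± 0.61, with 6 of 19 measured genes in the brightest 10%. Gad1, which makes GABA, had log2 intensities of 17.64, 17.55, 17.66, 17.87 and 17.95, the highest on arrays 4 and 5. The transcription factor Meis2 had 17.78 ± 0.10, the calcium-binding protein Calb2 had 17.39 ± 0.08, Pax6 had 16.11 ± 0.15, Tfap2b had 15.18 ± 0.18 and the glycine transporter Slc6a9 had 14.25 ± 0.12. Nos1, nitric oxide synthase, was the dimmest at 8.06 ± 0.36. The horizontal cell list had a median percentile of 73.7 ± 0.97 over 5 genes. Of these, 3 (60%) lay above the dim level, near the 56.4% of all named genes. Calb1, a calcium-binding protein, had 14.86 ± 0.11, in the brightest 10% by its mean percentile though not on every array. The transcription factors Prox1 and Onecut1 had 13.18 ± 0.07 and 12.49 ± 0.12, above the dim level on all 5 arrays, and Lhx1 had 10.32 ± 0.77, above it on 2 of 5.

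Ganglion cells, whose axons form the optic nerve, had a list median percentile of 83.8 ± 0.50. The neurofilament gene Nefl had log2 intensities of 18.19, 18.17, 18.04, 17.94 and 18.05, Tubb3 had 17.01 ± 0.08 and the growth-associated Stmn2 had 16.66 ± 0.06. These structural genes are used by other neurons too. Of the more restricted markers, Sncg had 14.87 ± 0.16, Rbpms had 12.68 ± 0.08 and Opn4, the melanopsin of light-sensitive ganglion cells, had 9.34 ± 0.35, below the dim level. The Pou4f genes were not analysed here.

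Müller glia genes had a median percentile of 94.8 ± 0.27, with 10 of 16 measured genes in the brightest 10% and none of the 16 below the dim level. After Glul and Clu came Apoe, which encodes a lipid carrier, at 19.15 ± 0.09. The dimmest was the transcription factor Sox9, with a mean of 11.51 ± 0.43. Astrocytes, which enter the retina from the optic nerve, had only 2 measured genes, Aldh1l1 at 12.52 ± 0.20 and Pax2 at 9.20 ± 0.64, and Gfap was not analysed here.

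Lists of tissues that adjoin or pass through the retina split within themselves. Among genes of the pigment epithelium and melanin, Ttr, the thyroxine carrier transthyretin, had 18.04 ± 0.04 and Krt18 had 15.53 ± 0.10, while Best1, a chloride channel, had 7.62 ± 0.67. Below the dim level lay 6 of 14 measured genes (42.9%), near the 43.6% of all named genes. Tyrp1, a melanin enzyme, had 12.22 ± 0.12, and its other probe had 10.33 ± 0.46, below the dim level. Crystallins, the structural proteins of the lens that are also expressed in retina, had a median percentile of 77.2 ± 1.04, and 13 of 15 measured genes lay above the dim level. Cryab had 15.75 ± 0.04, Crygd had 14.99 ± 0.08, Cryaa had 14.77 ± 0.11 and Crygs had 14.47 ± 0.10. The other probe of Crygd had 11.93 ± 0.14. The 4 measured lens genes that are not crystallins lay below the dim level, from Lgsn at 10.23 ± 0.37 to Gja3 at 7.85 ± 0.39, and Mip, the water channel of lens fibres, had values of 10.43, 7.77, 8.12, 9.32 and 8.14. Several of the gamma crystallin genes are close copies, and their probes may share targets, which was not tested.

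TGCTGA occurred in 10 of 14 crystallin promoters (71.4%), in 9 of 48 of the photoreceptor lists, in 14.1% of those of named genes and in 16.1% of all promoters. The crystallin share was noticed after looking at several lists, and many of the genes are related copies that may have related promoters. Crygd, the brightest of the 14 at 14.99, held no match, and Crygn, the dimmest at 8.27, held 1. The 150 bases before the start are printed for the 2 brightest crystallin genes that hold the string there. It is in capitals, as written in Cryaa and on the opposite strand in Cryba2.
Cryaa (chr17:31677781-31677930, plus strand, mean log2 intensity 14.77): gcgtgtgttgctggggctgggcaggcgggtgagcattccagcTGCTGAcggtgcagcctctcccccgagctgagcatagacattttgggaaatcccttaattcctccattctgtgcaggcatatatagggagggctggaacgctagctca
Cryba2 (chr1:74893144-74893293, minus strand, mean log2 intensity 14.61): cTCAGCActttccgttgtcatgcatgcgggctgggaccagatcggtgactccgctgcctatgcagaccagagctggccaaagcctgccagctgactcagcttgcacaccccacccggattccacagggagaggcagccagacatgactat

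Blood and vessel markers were also uneven. Kdr, the vascular endothelial growth factor receptor, had 15.97 ± 0.15 and Cldn5, a tight junction protein, had 13.69 ± 0.11, whereas Pecam1 had 10.81 ± 0.07, close to the dim level, and Cdh5 had 8.22 ± 1.19, below it. Hba-a1, an alpha globin of red cells, had log2 intensities of 15.10, 14.96, 14.78, 14.93 and 14.81, and the other 3 measured erythroid genes, Alas2, Epb42 and Slc4a1, lay below the dim level. The complement genes C1qa, C1qb and C1qc, made by microglia, had 13.92 ± 0.09, 12.71 ± 0.10 and 12.06 ± 0.07, and Aif1, a microglial marker, had 7.67 ± 0.49. Of 6 pericyte genes, 4 (66.7%) lay below the dim level, against 43.6% of all named genes. The defining marker Pdgfrb was among them at 9.45 ± 0.80, while Rgs5 had 12.38 ± 0.09 and Kcnj8 had 12.02 ± 0.20, above that level on all 5 arrays. The share below it was 75% of the 4 measured erythroid genes. It was 45.5% of 11 endothelial and 44.4% of 9 microglial genes, near the share of all named genes.

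Lists of other tissues were next, beside the 43.6% of all named genes below the dim level. For oligodendrocytes and myelin, 6 of 7 measured genes lay below the dim level, with Mog at 8.12 ± 1.13, and Mbp, the exception, at 11.09 ± 0.16. For liver, 9 of 11 lay below it, Alb and Apoa1 among them at 7.85 ± 1.06 and 7.62 ± 0.40, and the exceptions were Apoa2 at 11.55 ± 0.20 and Ttr, which both the liver and pigment epithelium lists hold. For dividing cells 7 of 10 lay below it, with Top2a at 8.02 ± 0.59, and Cdc20 at 12.04 ± 0.27 was the brightest. For skeletal muscle 5 of 7 lay below it, with Ckm at 10.32 ± 0.25 and Acta1 at 12.55 ± 0.10. For cornea and other epithelia 4 of 6 lay below it, with Krt5 at 10.80 ± 0.27 and Krt12 at 10.11 ± 0.22. For fibroblasts 3 of 6 lay below it, near the share of all named genes, with Lum at 8.11 ± 1.00 the dimmest and with Col1a1 at 10.59 ± 0.25 and Dcn at 12.36 ± 0.11. The part of these tissues in the pool was not tested.

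**Figure D3:**
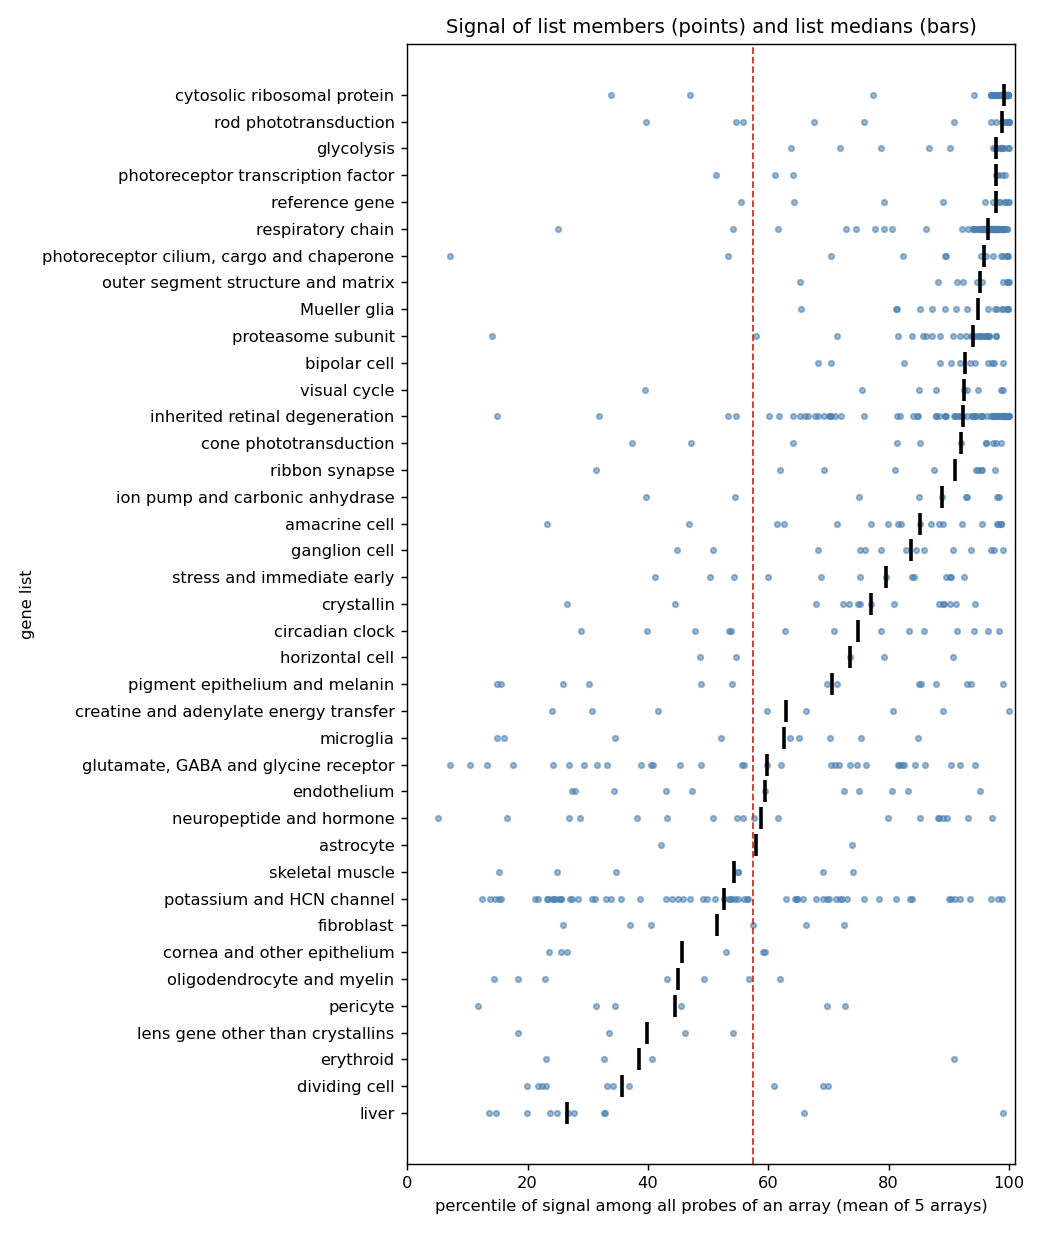
Percentile of signal among all probes of an array (x axis, mean of 5 retina arrays) of each measured member (points) of 39 gene lists (y axis, in order of the list median, shown as a bar). The dashed line marks the percentile of the dim level, and ribosomal and rod lists sit at the right edge while liver, dividing cell and erythroid lists have their medians left of the line.

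Genes of protein synthesis and energy supply were bright as whole lists. The cytosolic ribosomal protein list had a median percentile of 99.2 ± 0.04, with 51 of 54 genes in the brightest 10%, and gave 3.88% ± 0.09 of the summed intensity. Its dimmest gene was Rpsa, at 8.63 ± 0.56, and ribosomal genes have many processed copies, whose part in the signal was not tested. The respiratory chain list had 96.6 ± 0.10, with 54 of 63 in the brightest 10%, led by the ATP synthase genes Atp5b (19.22 ± 0.12) and Atp5md (19.01 ± 0.16), and its dimmest gene was the testis form Cox7b2 at 8.14 ± 0.36. The glycolysis list had 97.9 ± 0.18, with 11 of 15 in the brightest 10%. After Gapdh came Ldha, lactate dehydrogenase A, at 19.38 ± 0.13 and Aldoc, aldolase C, at 18.24 ± 0.09, and the dimmest was Tpi1, triose phosphate isomerase, at 11.30 ± 0.17. The proteasome list had 94.0 ± 0.08 with 19 of 28 in the brightest 10%, from Psmb4 at 17.15 ± 0.06 down to Psmb11, the subunit of the thymus, at 7.66 ± 0.45.

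Among 12 genes often used as references, 8 lay in the brightest 10%. Actb had 18.41 ± 0.07, and Gusb, the dimmest, had 10.42 ± 0.87. In the creatine and adenylate list only Ckb lay in the brightest 10%, and the list median percentile was 63.0 ± 1.00, near that of all named genes.

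Channels and receptors were a different case, with a few bright members in lists whose medians lay near or below that of all named genes. Of 67 potassium and HCN channel genes, 41 (61.2%) lay below the dim level, against 43.6% of all named genes. In the brightest 10% lay 8 (11.9%), near the 14.4% of all named genes, and the list median percentile was 52.7 ± 1.12. Kcnv2, a modifier subunit of photoreceptor potassium channels, had log2 intensities of 18.05, 17.98, 17.81, 17.96 and 17.97. Kcnj14, an inward rectifier, had 17.36 ± 0.08 and the accessory subunit Kcne2 had 16.68 ± 0.11. Of 33 glutamate, GABA and glycine receptor genes, 16 (48.5%) lay below the dim level, near the share of all named genes. The 3 in the brightest 10% (9.1%) were the GABA receptor subunit Gabrr2 (15.72 ± 0.07), Grm6 and the kainate receptor subunit Grik1 (14.81 ± 0.15). The ion pump and carbonic anhydrase list had a median percentile of 88.9 ± 0.29, led by Atp1b1, a sodium pump beta subunit, at 17.46 ± 0.09, and by the carbonic anhydrase Car2 at 17.26 ± 0.05.

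Of 19 neuropeptide and hormone genes, 9 lay below the dim level (47.4%), near the 43.6% of all named genes. Cartpt, the precursor of the CART peptide, had 16.79 ± 0.12, Cck had 15.42 ± 0.09 and Pdyn had 14.69 ± 0.12, while growth hormone, Gh, had 7.04 ± 0.50. Of 14 circadian clock genes, 4 lay in the brightest 10% (28.6%, against 14.4% of all named genes). The clock-controlled factor Dbp had 17.45 ± 0.06, Tef had 16.48 ± 0.08, Rora had 15.68 ± 0.04 and Npas2, the dimmest, had 8.37 ± 0.57. The time of day of collection is not given in the sources used here. Of 13 stress and immediate early genes, which rise within minutes of handling or stimulation, Dusp1, Jun and Ier2 lay in the brightest 10% by their mean percentile, 1 of the 3 on every array, at 15.25 ± 0.15, 14.81 ± 0.09 and 14.78 ± 0.16. Egr2, the dimmest, had values of 11.44, 11.00, 7.68, 8.38 and 8.61, above the dim level on arrays 1 and 2 alone.

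The spread between arrays depended on brightness. In 10 equal groups of probes by mean signal, the median SD of a probe was 0.49 log2 units in the dimmest group, highest at 0.65 in the fourth, 0.35 in the sixth, and 0.10 in the brightest. In the brightest 25% of probes, 4978 named genes had a median SD of 0.10, and 4 of them had an SD above 0.5. The largest was that of Guca1b, which encodes the second guanylate cyclase activator of photoreceptors. Its log2 intensities were 18.85, 13.52, 12.48, 18.82 and 18.78 (SD 3.20). Arrays 1, 4 and 5 lay together near the top of the order, where its best rank was 133, and arrays 2 and 3 were more than 5 log2 units lower, with a worst rank of 8714. Guca1a and the other bright genes of the rod list showed no such split. The Guca1b mean of 16.49 describes none of the 5 arrays.

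The next largest were much smaller. Strn4, a striatin scaffold protein, had values of 13.57, 12.41, 15.11, 14.20 and 14.02 (SD 0.99), the highest on array 3 and the lowest on array 2. Hspa13, a heat shock protein 70 relative, had an SD of 0.51 and was high on array 3, and Dync1i2, a dynein intermediate chain, had an SD of 0.50 and was high on array 2. Gnl3, Morc2a, Tead3 and Dera had SDs from 0.39 to 0.47.

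**Figure D4:**
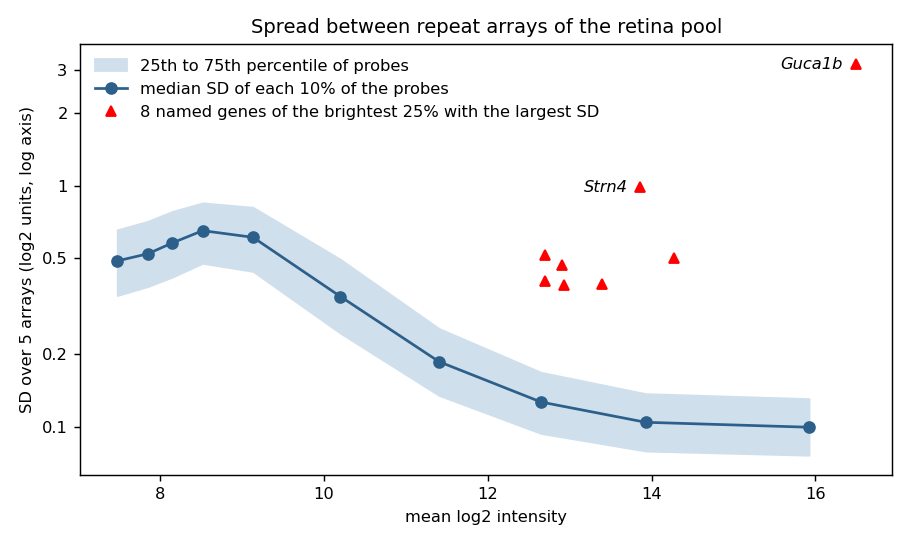
SD of log2 intensity over the 5 retina arrays (y axis, log axis) against mean log2 intensity (x axis), as the median (points) and the 25th to 75th percentile (band) for each 10% of the probes, with the 8 named genes of largest SD in the brightest 25% as triangles. The median falls from 0.65 at its highest to 0.10 in the brightest 10%, and Guca1b stands alone at 3.20.

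Genes with several probes show how far a rank depends on the probe. For the 540 such genes, the brightest and dimmest probe differed by a median of 1.51 log2 units (25th to 75th percentile 0.70 to 2.74), beside an interquartile range of 4.50 over all probes. The difference was within 1 log2 unit in 192 genes (35.6%) and over 4 in 65, and it exceeded the larger SD of both probes in 450. In 140 genes the dim level separated the probes of the same gene.
Gnas, which encodes the stimulatory G protein alpha subunit from a locus of many transcripts, had the widest gap among genes with a bright probe, with means of 18.44 and 8.03. Mtrr followed with 21.06 and 11.65, then the ribosomal gene Rpl34 with 17.64 and 8.28, Fv1 with 18.16 and 9.40, and the proton pump gene Atp6v1c2 with 16.97 and 8.41. At the other end, the probes of Cycs, cytochrome c, differed by 0.05, with means of 17.18 and 17.13, and those of Mrpl49 and Hdgfl3 also differed by less than 0.1. Of 140 genes with a probe in the brightest 10%, 18 also had a probe below the dim level. The brightest and dimmest probes of the 140 differed by a median of 2.02 log2 units, beside a range of 19.38 to 21.06 over the 30 brightest genes.

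**Figure D5:**
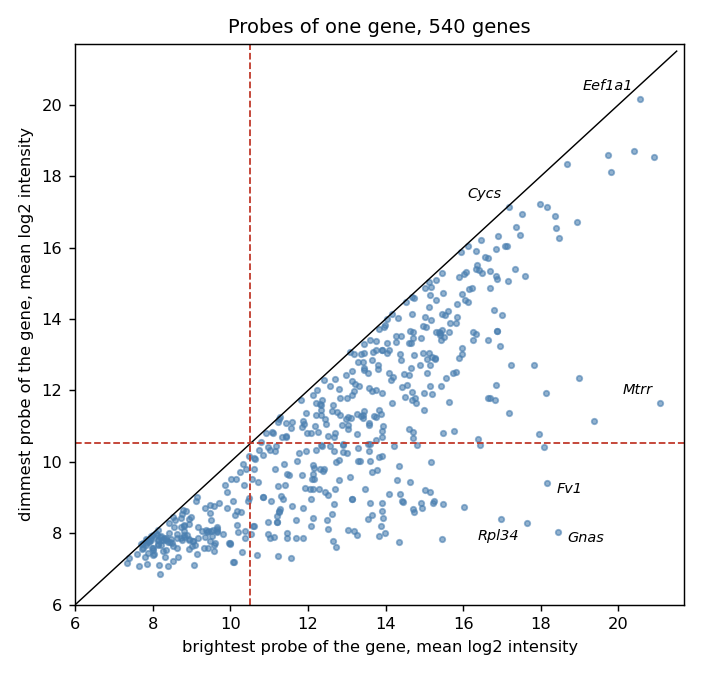
Mean log2 intensity of the dimmest probe (y axis) against the brightest probe (x axis) of each of 540 genes with several probes, over the 5 retina arrays. The solid line marks equal signal and the dashed lines the dim level of 10.52, and Gnas, Mtrr, Rpl34 and Fv1 lie farthest from equality while Cycs and Eef1a1 lie close to it.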

How the data were processed

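Gene expression was measured on single-channel chemiluminescent arrays in 5 repeats of 1 adult retina pool. The deposited values were treated as linear intensities. Scanner software, background correction and scaling are not given in the sources used here. Array medians spanned 0.24 on the log2 scale, so the intensities were log2-transformed and quantile-normalized over the 5 retina arrays alone (pandas 2.3.3, numpy). Probes were named from the platform annotation, and 14402 of 14411 matched RefSeq by Entrez ID. The probe with the highest mean stood for a gene, and percentiles were taken within each array over all 33012 probes. No groups were compared, so no test between groups was run and no gene was called. Dixon's test at the 95% level marked single arrays far from the other 4 in the named genes. The scripts were tested on simulated data.

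Named genes followed a rule: the 30 brightest, the 3 brightest and the dimmest of each of 39 lists, defining cell type markers, the 8 largest SDs in the brightest 25%, and the 5 largest and 3 smallest differences between probes. The members, lists and rules were chosen with earlier results of these data known. Symbol patterns of the lists were narrowed after values had been seen, and the shares of signal, symbol-stem families, both promoter strings and the printed promoters were chosen after seeing the data. The respiratory chain pattern also took in the pseudogene symbol Ndufs5-ps.

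Alternatives were no scaling, aligned medians, quantile normalization over all 10 arrays, an offset of 50, the dimmest probe per gene, medians over arrays, ranks over named probes only, other dim levels and leaving out each array.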

Additional observations from a re-analysis of the deposited data

Results flagged for a closer look

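Among the 196 named genes, 14 (7.14%) had 1 array far from the other 4, by Dixon's test, where chance gives about 1 in 20. The 196 include 8 genes chosen for their large SD over the same arrays, which hold 3 of the 14, and without these 8 the count was 11 of 188 (5.85%). Array 3 was the distant one in 6 genes and array 1 in 4.

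Among the brightest genes, Ckb, brain creatine kinase, was low on array 1 at 20.07, and Cpe, carboxypeptidase E, was low on array 1 at 19.97. Ppia was low on array 3 at 19.88, and the ribosomal gene Rps7 was high on array 3 at 19.73. Among retinal genes, the cone transducin gene Gnat2 was high on array 3 at 17.01, the synaptic matrix gene Egflam was high on array 3 at 17.25, the Müller glia factor Sox9 was high on array 4 at 12.26, and the prodynorphin gene Pdyn was low on array 3 at 14.47. Among genes of other cells, the myelin enzyme gene Cnp was low on array 1 at 9.15, the fibroblast gene Dcn was low on array 5 at 12.16, and the liver gene Ahsg was high on array 1 at 9.89. Of the genes with the largest SD, Hspa13 was high on array 3 at 13.62, Dync1i2 was high on array 2 at 15.16 and Gnl3 was high on array 5 at 13.71. The log2 intensities of Ckb, Cpe, Ppia and Rps7 take the shared steps of the normalized distribution.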

How the results depend on the processing

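No paired analysis was possible because the results come from no test and a single group. The count above the dim level was 14018, 8619 with that level at the 99th percentile and 16879 with it at the 90th, and 13831 to 14050 with 1 array left out. Of the 30 brightest genes, 28 to 30 stayed with 1 array left out and 24 with the dimmest probe of each gene. The count of lists with a median percentile over 90 was 15 under every alternative run but 1: it was 10 when only probes with 1 symbol were ranked, which moved 37 of the 39 list medians. The median SD of a probe was 0.325, with 0.341 without scaling, 0.287 with the offset of 50, and 0.299 to 0.301 with 1 array left out. The median difference between probes of a gene was 1.51, with 1.45 with the offset and 1.51 to 1.58 with 1 array left out. Of the 196 gene means, 127 moved by more than their SD under quantile normalization over all 10 arrays, and 15 with the dimmest probe. The cause was not tested in any of these. No detection call was used, so signal near the dim level cannot be told from background.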

Other observations

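Beyond the gene lists, 41 of the named genes in places 31 to 100 belonged to no list, and those named here were chosen after their values were seen. Several are known from photoreceptors or retinal neurons. Reep6, an endoplasmic reticulum protein of rods, had a log2 intensity of 19.26 ± 0.09 (SD, n = 5 arrays), and Mgarp, a mitochondrial protein, had 19.37 ± 0.12. Pcp4, a calmodulin regulator of neurons, had 18.54 ± 0.09, and Chgb, a protein of secretory granules, had 18.57 ± 0.05. The iron-storage ferritin genes Ftl1 and Fth1 had 18.94 ± 0.11 and 18.53 ± 0.10, and Gpx4, the lipid peroxide reductase, had 18.58 ± 0.10. Rps3a1 (18.62 ± 0.14) is a ribosomal gene that the symbol pattern of the ribosomal list did not take in.

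Families of at least 15 genes that share a symbol stem, 87 in all, ordered in the same way. The stem Cox, of cytochrome oxidase and its assembly, had a median percentile of 95.1, Mrpl, the mitochondrial ribosomal proteins, had 91.2, and Eif, the initiation factors, had 89.9. At the other end were Prl, the prolactin relatives, at 19.9, Vmn, the vomeronasal receptors, at 21.8, and Clec at 23.6. Next came Tas at 24.1, Olfr, the olfactory receptors that set the dim level, at 24.4, and Defb, the beta defensins, at 25.9. In 114 Vmn genes, 110 lay below the dim level, and the brightest, Vmn1r58, had a log2 intensity of 17.35 ± 0.08 at rank 587.

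Over all named genes, promoters of bright genes also differed in composition from those of dim genes. The ratio of observed to expected CpG in the 250 bases before the start had a median of 0.223 in the dimmest 10% of named genes and 0.787 in the brightest 10%. For the photoreceptor lists it was 0.331, and for the ribosomal list it was 0.842. Within the photoreceptor lists the order was the reverse. The median was 0.287 for the 32 genes in the brightest 10% of probes and 0.587 for the 16 others. These ratios are descriptions, and no difference was tested.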
